A study of Mus musculus with 6 samples.

Results

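The transcripts examined here were those of 10 genes of the blood vessel wall and of the growth factors that act on it, read in the kidneys of mice with and without adenine and oxonate. They were the ligands Vegfa, Angpt1 and Angpt2, the receptors Kdr, Flt1, Flt4 and Tek, and the endothelial surface proteins Pecam1, Cdh5 and Emcn. The rule picks the genes by symbol, through the GENCODE M21 annotation of their identifiers, and uses no measured value, although the list was drawn up with earlier results of these data known. They made up 10 of the 55450 genes in the table of counts, and all 10 were among the 16592 genes with enough counts to be tested.

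The day-0 group was 3 control mice, labelled with 20% PEG, and the day-21 group was 3 mice gavaged each day for 21 days with 2.4 g/kg of potassium oxonate and, in the same mixture, adenine at 0.16 g/kg. All 6 were male wild-type C57BL/6J mice, bought at 7 weeks of age and acclimated for 1 week, and RNA came from kidney tissue that held all cell types. Adenine is a purine whose breakdown product can crystallize in tubules, and potassium oxonate blocks uricase, the enzyme that degrades urate in mice. No group received either agent alone, so their effects cannot be told apart, and if the control mice were killed on day 0, as their name says, age and treatment cannot be told apart either. Total counts lay between 10963849 and 14333311 per mouse. Levels are given as normalized read counts scaled to a common library total (CPM) after TMM scaling, a correction for differences in library composition, and 3 counts, taken as the smallest visible level, were worth between 0.179 and 0.309 CPM. This floor covers counting error only.

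VEGF-A is released in the kidney mainly by podocytes and tubular epithelium and acts on the endothelium beside them. Its signalling receptor is KDR (VEGFR2), while FLT1 (VEGFR1) binds it tightly, signals weakly and also exists as a soluble decoy. FLT4 (VEGFR3) is the receptor for VEGF-C and VEGF-D and marks lymphatic endothelium and fenestrated capillaries. Angiopoietin-1, from pericytes and other mesenchymal cells, activates TEK (TIE2) on endothelium and keeps vessels quiet, and angiopoietin-2, from endothelium, opposes it in many settings. PECAM1 and VE-cadherin, the product of Cdh5, hold endothelial cells together, and endomucin (Emcn) is a mucin-like protein of capillary and venous endothelium.

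Promoter windows, the 250 bases upstream of the RefSeq start site on GRCm38.p6, could be read for 6 of the 10 genes (Vegfa, Kdr, Flt1, Flt4, Tek and Emcn). The first 3 of the following lines are the genes whose transcripts fell on day 21, and Emcn is a surface gene that was not called, shown for contrast. The Vegfa window is chr17:46032378-46032627 on the minus strand, that of Kdr chr5:75978456-75978705 on the minus strand, that of Flt1 chr5:147726012-147726261 on the minus strand and that of Emcn chr3:137340828-137341077 on the plus strand. Each line runs 5′ to 3′ towards the start site, and capitals mark every match, on either strand, to the GC box, written GGGCGG. Capitals also mark CCGGAA, one longer form of the site that ETS factors read, and the letters of the usual TATA element, TATAAA, on both strands.
Vegfa: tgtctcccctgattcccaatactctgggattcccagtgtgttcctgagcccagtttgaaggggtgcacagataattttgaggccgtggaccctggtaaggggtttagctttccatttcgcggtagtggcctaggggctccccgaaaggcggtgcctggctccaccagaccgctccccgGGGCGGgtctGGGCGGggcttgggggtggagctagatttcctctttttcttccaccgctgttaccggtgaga
Kdr: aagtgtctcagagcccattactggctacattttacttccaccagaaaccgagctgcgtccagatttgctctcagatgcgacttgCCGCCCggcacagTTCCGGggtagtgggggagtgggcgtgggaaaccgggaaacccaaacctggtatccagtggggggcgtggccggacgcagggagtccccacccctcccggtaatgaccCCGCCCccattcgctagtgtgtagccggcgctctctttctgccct
Flt1: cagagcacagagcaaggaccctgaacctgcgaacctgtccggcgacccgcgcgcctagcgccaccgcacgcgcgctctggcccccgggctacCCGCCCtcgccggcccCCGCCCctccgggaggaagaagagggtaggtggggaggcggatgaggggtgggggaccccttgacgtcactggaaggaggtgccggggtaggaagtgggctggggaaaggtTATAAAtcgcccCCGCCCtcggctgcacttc
Emcn: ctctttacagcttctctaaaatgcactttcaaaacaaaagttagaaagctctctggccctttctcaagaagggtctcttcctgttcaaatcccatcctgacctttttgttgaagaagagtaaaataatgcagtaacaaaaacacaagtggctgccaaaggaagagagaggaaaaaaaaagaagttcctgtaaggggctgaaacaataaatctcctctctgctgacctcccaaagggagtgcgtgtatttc

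The letters GGGCGG occurred 2 times in the Vegfa window, 2 times in that of Kdr and 3 times in that of Flt1, and 32.7% of the 32851 promoter windows of the same length held them. Flt4 also held 3 matches, in a window whose RefSeq start lies 416 bases inside the GENCODE gene, and Tek and Emcn held none. CCGGAA was found in the Kdr window alone among the 6, beginning 153 bases before the start (12.0% of all windows held it). The shorter ETS core, GGAA, was not counted or marked, and its letters can be read, on either strand, in every printed window. TATAAA was found in the Flt1 window alone, 31 bases before the start (12.4% of all windows). One form of the core of the hypoxia response element, ACGTG, was in none of the 6 windows, against 16.6% of all, which says only that these letters are not in this stretch. The other form, GCGTG, was not counted or marked, and its letters can be read, on either strand, in the printed Kdr, Flt1 and Emcn windows. The windows of Vegfa, Kdr and Flt1 had a GC content of 59.2%, 61.6% and 70.4%, with 11, 16 and 23 CpG dinucleotides. Among the genes not called, the Flt4 window (68.4%, 16 CpG) had a higher GC content than those of Vegfa and Kdr. Those of Tek (51.2%, 2 CpG) and Emcn (40.8%, 1 CpG) lay below the median of all windows (52.4%, 6 CpG). GC content thus did not separate the called genes from the others. No matched motif overlapped another. A match is a string of letters and was not tested as a binding site.

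Vegfa, Kdr and Flt1 fell on day 21, each to less than the level of any day-0 mouse, and none of the 10 genes rose. Differentially expressed genes (DEGs) were called by edgeR's quasi-likelihood test where the adjusted p was below 0.05 and the change exceeded 1.5-fold. By this rule 3 of the 10 genes were lower, where 15.5% of all genes tested were lower, 19.6% were higher and 35.1% were DEGs in either direction. The median log2 fold change of the 10 genes was -0.46, and that of all genes tested was 0.03. The groups did not overlap for 4 genes, all lower on day 21 (Vegfa, Kdr, Flt1 and Tek), beside 26.4% of all genes that were lower without overlap and 57.1% without overlap in either direction. In whole kidney, fewer cells of a type and less RNA per cell cannot be told apart. With 3 mice per group the two-sided exact permutation test cannot go below p = 0.1.

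**Figure D1:**
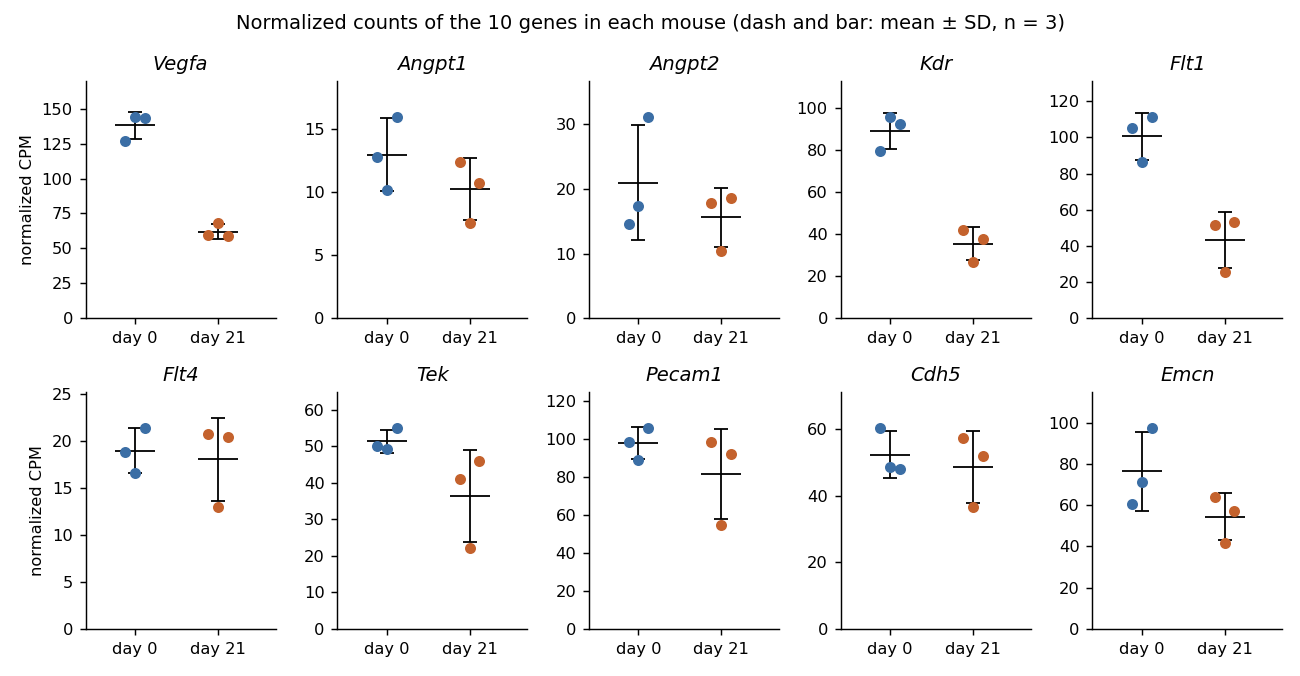
Each panel plots 1 gene, with normalized CPM on the vertical axis from 0 and the day-0 and day-21 groups side by side. Points are single mice, and the dash and bar are the mean and SD of 3 mice. The groups lie apart for Vegfa, Kdr, Flt1 and Tek and overlap for the other 6 genes.

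Vegfa (ENSMUSG00000023951.17; chr17:46016993-46032369, minus strand, GRCm38), the main angiogenic ligand, was at 127, 143.9 and 143.3 CPM in the 3 day-0 mice and at 59.2, 67.9 and 58.9 CPM in the 3 day-21 mice. Every day-21 mouse was below every day-0 mouse, and the spread within each group was small beside the gap. Its mean went from 138 ± 9.55 CPM to 62.0 ± 5.09 CPM (SD, n = 3), or 44.9% of the day-0 level in the fit. The log2 fold change was -1.15 (SE 0.11, 95% confidence interval -1.40 to -0.91, edgeR adjusted p = 2.35e-05). These are counts over the whole gene, which spans 4285 bases of exons, and they do not separate the VEGF-A isoforms made by splicing.

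The 2 receptors that bind VEGF-A fell by a similar amount. Kdr (ENSMUSG00000062960.10; chr5:75932827-75978458, minus strand) was at 79.4, 95.5 and 92.2 CPM on day 0 and at 41.8, 26.5 and 37.7 CPM on day 21. The highest day-21 mouse was thus well below the lowest day-0 mouse. Its log2 fold change was -1.33 (SE 0.16, 95% confidence interval -1.70 to -0.97, edgeR adjusted p = 0.00011), the largest of the 10 genes and a 2.52-fold lower level. Flt1 (ENSMUSG00000029648.13; chr5:147561604-147726011, minus strand) was at 104.98, 86.2 and 111 CPM on day 0 and at 51.3, 25.4 and 53.4 CPM on day 21. Again the groups stood apart, and day-21 replicate 2 lay below the other two mice of its group. Its log2 fold change was -1.22 (SE 0.24, 95% confidence interval -1.75 to -0.68, edgeR adjusted p = 0.0022), a 2.33-fold lower level. The counts do not separate the membrane-bound receptor from the soluble decoy.

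Flt4 (ENSMUSG00000020357.3; chr11:49609263-49652739, plus strand), the receptor of VEGF-C and VEGF-D, was not called. It was at 18.9, 16.6 and 21.4 CPM on day 0 and at 20.8, 13.0 and 20.5 CPM on day 21. The groups overlapped over most of their range. On the log2 scale the change was -0.07 (SE 0.20, edgeR adjusted p = 0.80), and its 95% confidence interval, -0.51 to 0.37, leaves out a change as large as that of Kdr.

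Tek, Angpt1 and Angpt2, the receptor and ligands of the angiopoietin system, were not called. Tek (ENSMUSG00000006386.15; chr4:94739289-94874976, plus strand), the angiopoietin receptor, was at 50.1, 49.1 and 55.0 CPM on day 0 and at 41.1, 22.2 and 45.9 CPM on day 21. All 3 day-21 mice lay below the day-0 mice, 2 of them by a small margin and replicate 2 by a wide one. The log2 fold change was -0.50 (SE 0.22, 95% confidence interval -0.996 to -0.0024, edgeR adjusted p = 0.093). It was called lower without day-21 replicate 3, at -0.70, and was -0.24 without day-21 replicate 2, and the adjusted p over 14 alternatives that refit the data ran from 0.0031 to 0.67.

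Angpt1 (ENSMUSG00000022309.9; chr15:42424723-42676977, minus strand), the TEK agonist, was at 12.8, 10.2 and 16.0 CPM on day 0 and at 12.4, 7.58 and 10.7 CPM on day 21. Angpt2 (ENSMUSG00000031465.6; chr8:18690263-18741562, minus strand), the context-dependent antagonist, was at 14.5, 17.3 and 31.1 CPM on day 0 and at 17.8, 10.4 and 18.7 CPM on day 21. Both ligands overlapped between groups, and the highest value of Angpt2 came from a single day-0 mouse. The log2 fold change was -0.34 for Angpt1 (SE 0.23, 95% confidence interval -0.86 to 0.17, edgeR adjusted p = 0.25). For Angpt2 it was -0.42 (SE 0.30, 95% confidence interval -1.08 to 0.24, edgeR adjusted p = 0.27), an interval wide enough to hold both no change and a 2.12-fold lower level. Angpt1 shares 737 exon bases (14.2% of its own) with the antisense gene Gm17473, and since the sources used here do not state that strand was counted, reads there cannot be told apart. Angpt2 lies within Mcph1 on the opposite strand and shares no exon bases with it.

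The 3 endothelial surface genes were not called. Pecam1 (ENSMUSG00000020717.19; chr11:106654217-106750628, minus strand) was at 98.6, 89.1 and 106 CPM on day 0 and at 98.5, 54.6 and 92.2 CPM on day 21. Cdh5 (ENSMUSG00000031871.9; chr8:104101625-104144511, plus strand) was at 60.4, 48.6 and 48.1 CPM on day 0 and at 57.4, 36.7 and 52.0 CPM on day 21. For each of these, 2 of the 3 day-21 mice lay within the day-0 range and replicate 2 lay below it. The log2 fold change was -0.26 for Pecam1 (SE 0.19, 95% confidence interval -0.69 to 0.17, edgeR adjusted p = 0.31) and -0.11 for Cdh5 (SE 0.17, 95% confidence interval -0.48 to 0.27, edgeR adjusted p = 0.64). Neither interval reaches the fall of Vegfa, Kdr or Flt1.

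Emcn (ENSMUSG00000054690.17; chr3:137341067-137432185, plus strand) was at 60.5, 71.2 and 97.4 CPM on day 0 and at 64.0, 41.8 and 57.3 CPM on day 21. The day-0 mice were spread widely, and 1 of the day-21 mice reached their range. The log2 fold change was -0.49 (SE 0.20, 95% confidence interval -0.93 to -0.06, edgeR adjusted p = 0.064). It passed the rule without day-0 replicate 1 (-0.65) and without day-21 replicate 1 (-0.62), and its adjusted p over 14 alternatives that refit the data ran from 0.0024 to 0.65.

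**Figure D2:**
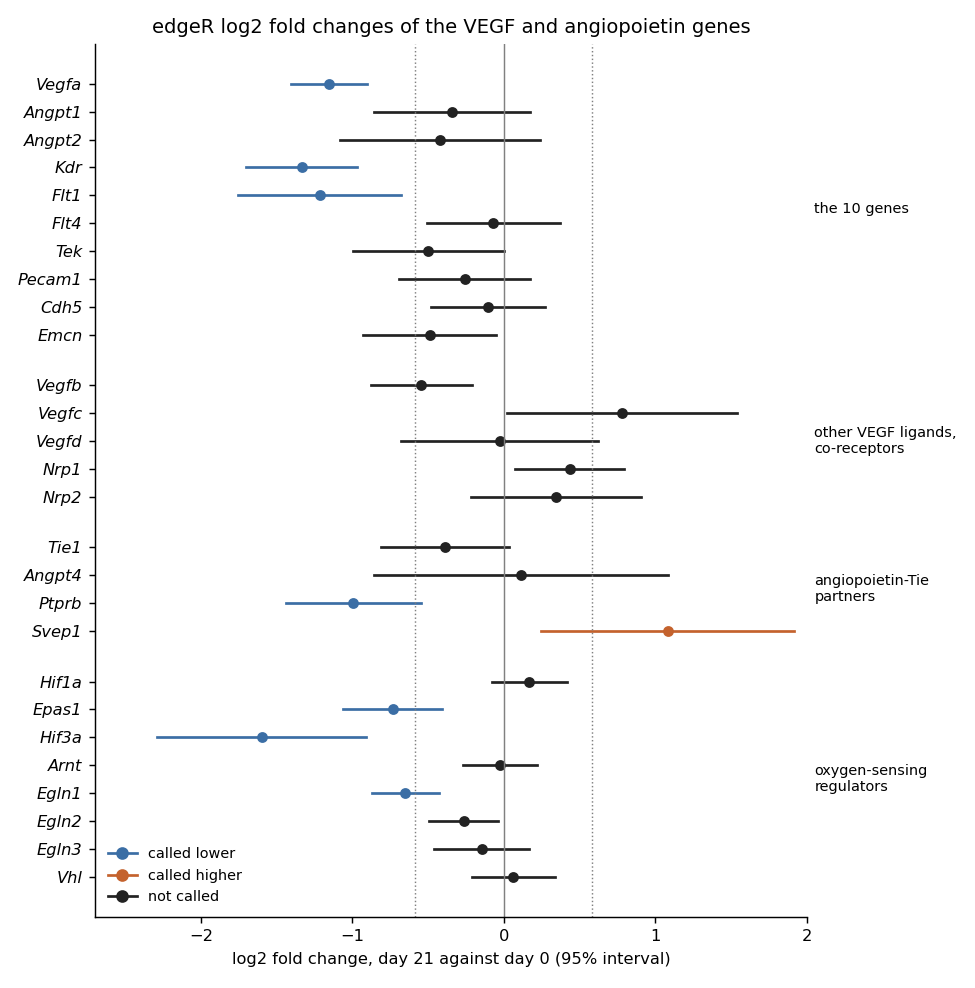
Points are edgeR log2 fold changes of day 21 against day 0 on the horizontal axis, with bars for the 95% confidence interval, for the 10 genes and for the other ligands, co-receptors, angiopoietin partners and oxygen-sensing genes, colours mark the calls, and dotted lines mark a 1.5-fold change. The intervals of Vegfa, Kdr and Flt1 lie wholly and far below 0, around -1.15, -1.33 and -1.22, while those of Tek and Emcn end just under 0, at -0.0024 and -0.06.

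Day-21 replicate 2 was the lowest of the 6 mice for 9 of the 10 genes, the exception being Vegfa, where it was the highest of the day-21 mice. Without that mouse the log2 fold changes were -1.22 for Vegfa, -1.16 for Kdr and -0.94 for Flt1, all still DEGs, and -0.04 for Pecam1, 0.06 for Cdh5 and 0.12 for Flt4. The choice of scaling also moved the values. Scaling by library size alone shifted the median of all genes to 0.42, and on that scale Kdr was at -0.95, Flt1 at -0.84 and Vegfa at -0.76, each still a DEG. On the same scale Flt4 (0.31), Cdh5 (0.28), Pecam1 (0.12) and Angpt1 (0.04) turned positive but stayed below that median. Tek (-0.12), Emcn (-0.11) and Angpt2 (-0.04) stayed negative on it, so the sign changed with a scaling for 4 of the 7 uncalled genes.

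Each gene was next set against a reference from the same mouse, as its log2(CPM + 1) minus the mean over 24 pan-endothelial genes. This removes the library scaling apart from the effect of the added 1. The result is not a level per endothelial cell for any of the 10 genes. The tissue held all cell types, and the cells that carried each transcript, or those of the reference, were not separated. Vegfa and Angpt1 are made mainly by other cells. That reference mean was 4.23 ± 0.08 on day 0 and 4.25 ± 0.30 on day 21 in log2(CPM + 1) units, and day-21 replicate 2, at 3.90, was its lowest mouse. Kdr was at 2.18, 2.35 and 2.24 above the reference on day 0 and at 1.04, 0.88 and 0.81 on day 21. The 3 day-21 mice were now close together, and the difference was -1.34. The differences of Flt1 (-1.28), Vegfa (-1.16), Tek (-0.57) and Emcn (-0.49) were also without overlap between groups, all at an exact permutation p = 0.1, the smallest that the design allows (0.2 after Benjamini-Hochberg adjustment over the 10 genes). Flt4 (-0.10), Cdh5 (-0.14), Pecam1 (-0.31), Angpt1 (-0.34) and Angpt2 (-0.39) overlapped, with exact permutation p-values from 0.2 to 0.6.

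**Figure D3:**
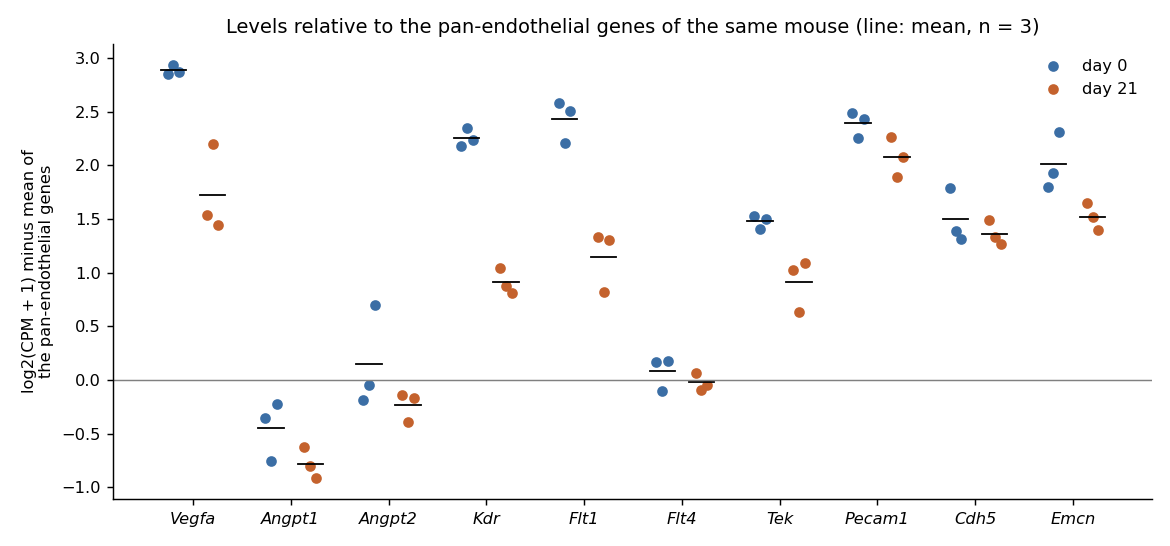
The vertical axis is the log2 level of each gene minus the mean of the 24 pan-endothelial genes in the same mouse, with points for mice and a line for the mean of 3. Kdr lies between 2.18 and 2.35 on day 0 and between 0.81 and 1.04 on day 21, while Flt4 and Cdh5 overlap.

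Ratios of counts within a mouse gave the balance between receptors and between ligands. Flt4 to Kdr was at -2.07, -2.51 and -2.10 (log2) on day 0 and at -1.005, -1.03 and -0.88 on day 21, a difference of 1.26. All day-21 mice thus held more Flt4 for each Kdr count than any day-0 mouse (exact permutation p = 0.1, adjusted p = 0.25 over 5 ratios). Kdr to Pecam1 moved the other way without overlap, from -0.31, 0.10 and -0.20 to -1.24, -1.04 and -1.29, a difference of -1.05 (exact permutation p = 0.1, adjusted p = 0.25). Flt1 to Kdr differed by 0.07 (exact permutation p = 0.7), within the spread between mice. Vegfa to Kdr differed by 0.20 (exact permutation p = 0.8), with day-21 replicate 2 apart at 1.35 and the others between 0.50 and 0.68. Angpt2 to Angpt1, a ratio used as a sign of vessel destabilization, was at 0.18, 0.76 and 0.96 on day 0 and at 0.52, 0.45 and 0.80 on day 21, a difference of -0.04 (exact permutation p = 1.0).

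**Figure D4:**
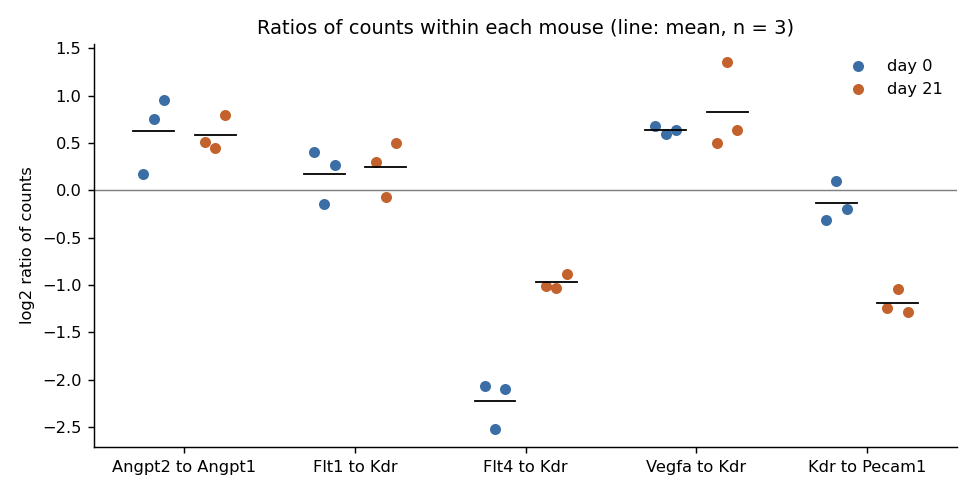
The vertical axis is the log2 ratio of counts between a pair of genes in the same mouse, with points for mice and a line for the mean of 3. Flt4 to Kdr and Kdr to Pecam1 show no overlap between day 0 and day 21, at differences of 1.26 and -1.05, and the other 3 ratios overlap.

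Levels were compared between genes as CPM per kilobase of exons, taken over all transcripts of a gene. That length was 13504 bases for Flt1, 9030 for Kdr and 3690 for Angpt2. Their longest single transcripts were 6895, 5924 and 3560 bases. The order of the genes thus depends on the length used. On day 0 Vegfa was the highest at 32.2 ± 2.23 (SD, n = 3), followed by Pecam1 (15.7), Emcn (14.1), Cdh5 (12.5), Tek (10.9), Kdr (9.86), Flt1 (7.46), Angpt2 (5.69), Angpt1 (2.50) and Flt4 (2.31). Neighbours in this order overlapped between mice except Vegfa over Pecam1, Kdr over Flt1 and Angpt2 over Angpt1. On day 21 Vegfa (14.5 ± 1.19) and Pecam1 (13.1 ± 3.81) overlapped, Kdr stood at 3.91 and Flt1 at 3.21, both under Angpt2 (4.23), and every pair of neighbours overlapped.

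None of the 5 other VEGF ligands and co-receptors that could be tested was called in either direction (median log2 fold change 0.34). Vegfb, a ligand of FLT1, was at 42.8 ± 8.04 CPM on day 0 and 29.4 ± 2.22 CPM on day 21 (log2 fold change -0.54, SE 0.15, edgeR adjusted p = 0.014), a change under the 1.5-fold limit. Vegfc, a ligand of FLT4, was at 0.78 (edgeR adjusted p = 0.087) and Vegfd, its other ligand, at -0.03. The co-receptors Nrp1 and Nrp2 were at 0.43 (edgeR adjusted p = 0.049, under the fold limit) and 0.34. Pgf, the placental growth factor, had 1, 3 and 5 counts on day 0 and 19, 3 and 16 counts on day 21 and was not tested.

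Among 4 partners of the angiopoietin receptor, Ptprb, the endothelial phosphatase that dephosphorylates TEK and is known as VE-PTP, fell from 98.3 ± 19.9 to 49.4 ± 11.9 CPM without overlap (log2 fold change -0.99, SE 0.20, edgeR adjusted p = 0.0024). Svep1, a matrix protein that binds the orphan receptor TIE1, rose from 17.4 ± 7.71 to 36.7 ± 16.7 CPM (1.08, SE 0.38, edgeR adjusted p = 0.038), but its groups overlapped and the call was lost with DESeq2, with limma-voom and without any 1 of 4 mice (day-0 replicates 1 and 2, day-21 replicates 1 and 3), where the log2 fold change was between 0.83 and 0.97. Tie1 was at -0.39 (edgeR adjusted p = 0.12) and Angpt4, near the floor, at 0.11.

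Of 8 oxygen-sensing genes known to act on Vegfa transcription, 3 fell and none rose, with a median of -0.21. Epas1, which encodes HIF-2α and is expressed in renal endothelium and interstitium, fell from 178 ± 16.8 to 107 ± 19.9 CPM (log2 fold change -0.73, SE 0.15, edgeR adjusted p = 0.0024). Hif3a fell by 1.60 and Egln1, the prolyl hydroxylase that marks HIF proteins for degradation, fell by 0.65 on the log2 scale. Hif1a (0.17), Arnt (-0.02), Vhl (0.06), Egln2 (-0.27) and Egln3 (-0.15) were not called. With scaling by library size alone Hif3a was the 1 gene of this list called, and the median was 0.18, below that of all genes, and Egln1 (-0.56) also lost its call with upper-quartile scaling. Of 8 tested angiogenesis inhibitors, 7 rose (median 1.59), the largest being Cxcl10 at 3.26, a chemokine of the interferon response, while Timp3, a metalloproteinase inhibitor that also blocks KDR, fell by 1.11.

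Endothelial markers as a list stayed near the median of all genes. Of 24 pan-endothelial genes, 4 rose and 3 fell, with a median log2 fold change of -0.06, and their summed level was between 627 and 716 CPM on day 0 and between 475 and 705 CPM on day 21. The extremes were Ecscr at 1.73, Ramp2 at 0.93 and Myct1 at 0.79 (not called) at the upper end and Cyyr1 (-1.03), Ptprb (-0.99) and S1pr1 (-0.66) at the lower end. S1pr1 lost its call with 2 of the scalings and without any 1 of 3 mice (day-0 replicate 1, day-21 replicates 1 and 2), where it was between -0.64 and -0.51.

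Markers of single vessel beds were mostly not called. In the glomerular list 1 of 5 tested genes fell (median -0.59, from Gata5 at -1.15, not called, to Plat at 0.24). In the peritubular list 1 of 4 fell, Igfbp3, at -1.42, with Npr3 at the upper end at -0.20. In the vasa recta list 2 of 3 fell, with Igfbp5 at -1.51 and Slc14a1 at 0.08, and the second gene that fell is also on the podocyte list and counted there. Of 10 arterial genes 1 rose (Efnb2, 0.77) and 2 fell (lowest Cxcl12, -1.12). Of 3 venous genes 1 rose (Vwf, 0.81, a call lost without any 1 of day-0 replicates 1 and 2 and day-21 replicates 1 and 3, where it was between 0.56 and 0.92), and the lowest was Nr2f2 at 0.21. Of 4 lymphatic genes 1 rose (Pdpn, 2.58, which podocytes also express) and 1 fell, with Lyve1 lowest at -1.08 and not called. Of 6 tip and angiogenic genes, Aplnr rose by 1.12 and Esm1, a VEGF-A-responsive proteoglycan gene, fell by 1.37 on the log2 scale.

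**Figure D5:**
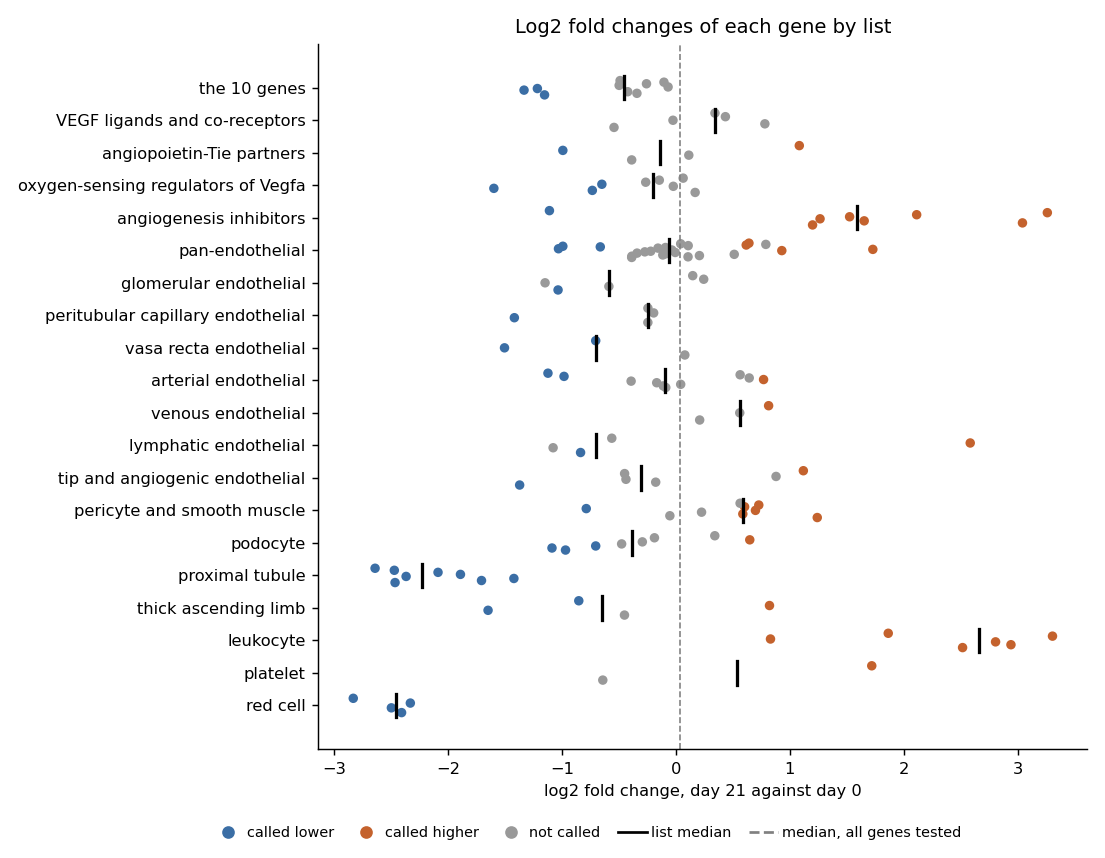
Each row is a list and each point a gene, placed by its log2 fold change on the horizontal axis and marked by its call. Pan-endothelial genes lie on both sides of 0 with a median of -0.06, proximal tubule genes lie wholly below 0 (median -2.23) and leukocyte genes wholly above (median 2.66).

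Markers of the cells that surround or feed these vessels moved in the same libraries, and their part in the values of Vegfa, Kdr and Flt1 was not tested. All 8 proximal tubule genes fell (median -2.23, from Gatm at -2.64 to Slc5a12 at -1.42), and their summed level went from a range of 12069 to 13178 CPM to one of 2234 to 2703 CPM. Of 8 podocyte genes 3 fell and 1 rose (0 to 1 when single mice were left out), with a median of -0.39, and their summed levels were between 444 and 700 CPM on day 0 and between 378 and 418 CPM on day 21. Of 4 thick ascending limb genes 2 fell (lowest Slc12a1, -1.65) and Cldn16 rose by 0.82. Of 9 pericyte and smooth muscle genes 5 rose (2 to 4 when single mice were left out, 3 with RLE scaling or DESeq2), led by Pdgfrb at 1.24, and Myh11 fell by 0.79. All 6 tested leukocyte genes rose, from Csf1r at 0.83 to Lyz2 at 3.31, and their sum went from between 117 and 139 CPM to between 488 and 670 CPM. Each of the 4 globin genes on the red cell list fell (Hbb-bt at -2.83, Hbb-bs at -2.33, and the near-identical Hba-a1 and Hba-a2, whose reads may be split between them). Their summed level was 221 to 501 CPM on day 0 and 32.1 to 74.6 CPM on day 21. The amount of blood left in the vessels was not measured, and the cause of this fall was not tested. Of 6 platelet genes 2 were tested, with Pf4 called higher at 1.72 and Itga2b at -0.64, not called. Gp9, Gp1ba and Gp6 had too few counts to be tested, with Gp6 at 2, 2 and 3 counts on day 0 and 0 in each day-21 mouse. Gp1bb was at 0 in every mouse. The summed platelet level was between 7.5 and 8.8 CPM on day 0 and between 6.1 and 8.8 CPM on day 21.

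Across the 6 mice, the genes whose log2 levels, centred on their own means, ran closest to Vegfa among 13142 genes were Cyfip2 (mean absolute difference 0.043), Tcea3 (0.058) and Macrod1 (0.063). Closest to Kdr were Slc17a1 (0.047), Fmo1 (0.051) and Slc27a2 (0.058), none of which is on an endothelial list used here. Their log2 fold changes were -1.27, -1.27 and -1.37. Closest to Pecam1 were Plvap (0.050), the diaphragm protein of fenestrated capillaries, Gm7887 (0.059) and Mmrn2 (0.066), an endothelial matrix protein. These are descriptions of likeness over 6 mice in 2 groups.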

How the data were processed

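Kidney mRNA of 3 day-0 and 3 day-21 mice was sequenced as paired-end reads. The authors deposited raw counts per gene for each mouse, without normalization. The submitters' processing notes name TopHat and the mm10 build, while the counting program and its strand setting are not given in the sources used here. All 55450 identifiers matched GENCODE M21 (GRCm38).

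Groups were compared with edgeR 4.0.16 under R 4.3.3 (filterByExpr at its settings of 10 for the count and 15 for the total, TMM, quasi-likelihood test, no replicate block), with Benjamini-Hochberg adjustment over 16592 genes. DESeq2 1.42.0 and limma 3.58.1 (voom) were alternatives, beside other scalings, filters, thresholds, a replicate block and leaving out each mouse. The fits were tested on simulated data with equal numbers of genes raised and lowered, which cannot check the scaling where library composition shifts. Values of single genes, ratios (pseudocount 1) and levels relative to the pan-endothelial genes (log2 of CPM + 1) were compared by two-sided exact permutation tests. Lists are described by counts and medians. The members and lists were chosen with earlier results of these data known. Named genes were all members, all genes of 3 pathway lists, the highest and lowest gene of every other list (3 of each for pan-endothelial genes) and the 3 genes most alike to Vegfa, Kdr and Pecam1, apart from single podocyte genes, which are not reported here. Calls used the study's thresholds. Nothing in the labels says more than that the mice were separate animals, and mice of a group differed by more than sampling noise (chi-square per gene 6.78 to 23.6). Promoter windows came from RefSeq (GRCm38.p6).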

Additional observations from a re-analysis of the deposited data

How the results depend on the processing

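Vegfa, Kdr and Flt1 kept their direction and their call under all 16 alternatives, with leave-one-out log2 fold changes from -1.23 to -1.12, -1.47 to -1.16 and -1.39 to -0.94. Of the uncalled members, the sign of Flt4 (0.015 with upper-quartile scaling, 0.31 with library size alone), Angpt1 (0.039), Pecam1 (0.12) and Cdh5 (0.28, the last 3 with library size alone) reversed. Leave-one-out ranges were -0.18 to 0.12 for Flt4 (0.0083 without day-0 replicate 3), -0.70 to -0.24 for Tek, -0.24 to 0.064 for Cdh5 and -0.65 to -0.30 for Emcn. Genes called higher were 5985 with library size alone and 1918 at the stricter thresholds of 0.01 for the adjusted p and 2 for the fold, and genes called lower 1338 and 1254. The causes were not tested.

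Same-numbered mice did not deviate together (correlations -0.03, 0.18 and 0.11, and 2 of the 3 day-0 mice correlated best with another number), so the numbers were not taken as pairs. With the replicate block the log2 fold changes were -1.16 for Vegfa, -1.35 for Kdr and -1.28 for Flt1, the 10 members had 3 lower and 0 higher calls as without it, 3235 genes were higher and 2523 lower, and Vegfd turned to 0.020.

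With library size alone, counts of higher calls were 3 for VEGF ligands and co-receptors, 7 for pan-endothelial, 1 for glomerular, 2 for arterial, 3 for venous, 2 for tip and 2 for podocyte genes. Counts of lower calls were 1 for oxygen-sensing, 1 for pan-endothelial, 1 for vasa recta, 0 for lymphatic, 0 for pericyte, 1 for podocyte and 1 for thick ascending limb genes. Medians were -0.075 for the members, 0.18 oxygen-sensing, 1.98 inhibitors, 0.32 pan-endothelial, -0.20 glomerular, 0.14 peritubular, -0.31 vasa recta, 0.29 arterial, 0.95 venous, -0.32 lymphatic, 0.077 tip, 0.98 pericyte, 0.0039 podocyte, -1.85 proximal tubule, -0.26 thick ascending limb, 3.05 leukocyte and 0.93 platelet. Single genes that changed sign were Vegfd (0.37), Egln2 (0.12), Egln3 (0.24), Arnt (0.36) and Npr3 (0.20). With the upper quartile, the oxygen-sensing median was -0.12 and the venous median 0.65, higher calls were 2 for arterial, 2 for venous and 2 for tip genes, and Arnt (0.063) and Vegfd (0.055) changed sign. With RLE 3 pericyte genes were higher.

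Without the filter on low counts, 1 VEGF ligand or co-receptor and 2 tip genes were higher, 2 glomerular genes were lower, and medians were 0.69 venous, -0.56 lymphatic and -1.41 platelet. With a mean of at least 50 counts, medians were -0.12 oxygen-sensing, -0.19 glomerular, 0.90 lymphatic, 2.83 leukocyte and -0.61 platelet, since fewer genes of each list were tested, with 2 venous and 0 platelet genes higher, Arnt at 0.0043 and Vegfd at 0.00059. With DESeq2, 0 angiopoietin partners, 2 tip and 3 pericyte genes were higher, and with limma-voom 0 angiopoietin partners, 2 pan-endothelial and 2 tip genes, and Vegfd was at 0.026. Against the median of the reference genes, Kdr differed by -1.50 and Flt4 by -0.26.

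Leaving out 1 mouse at a time, higher calls ranged from 0 to 2 for VEGF ligands and co-receptors, 0 to 1 for angiopoietin partners, 2 to 5 for pan-endothelial, 1 to 2 for arterial, 0 to 1 for venous, 1 to 2 for tip, 2 to 4 for pericyte and 0 to 1 for podocyte genes. Lower calls ranged from 0 to 1 for VEGF ligands and co-receptors, 1 to 2 for glomerular, 1 to 2 for vasa recta and 0 to 1 for platelet genes. Medians ranged from -0.17 to 0.11 for pan-endothelial, -0.85 to -0.46 for lymphatic and 2.50 to 2.79 for leukocyte genes. Without day-0 replicate 3, Vegfb (-0.70), Vegfc (1.15) and Nrp1 (0.62) passed the rule. Without day-21 replicate 1 Gata5 (-1.86) and Itga2b (-0.91) passed, and without day-21 replicate 2 Myct1 (1.03) passed. Among uncalled genes whose sign changed, the leave-one-out ranges were -0.34 to 0.20 for Vegfd, -0.13 to 0.31 for Angpt4, -0.076 to 0.0071 for Arnt and -0.21 to 0.48 for Slc14a1. At this depth a gene under about 1 CPM, such as Angpt4, carries few counts, and its sign is not settled.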
